A study of Mus musculus with 10 samples.

Results

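The 10 genes described here are the Notch receptors Notch1, Notch2, Notch3 and Notch4, the ligands Jag1 and Jag2, and Hes1, Hey1, Hey2 and Heyl, which Notch signalling is known to switch on. They were taken by name from the 40620 genes of the deposited tables, with earlier results of these data known. RNA was measured by sequencing in MC3T3-E1 Subclone 4, a single clonal line of pre-osteoblasts from mouse calvaria, at 5 stages with 2 replicates each, named A and B. Subconfluent and confluent cells were kept in growth medium with 10% serum, and the 24h, 14d and 21d cells in osteogenic medium, with ascorbic acid at 50 µg/ml and β-glycerophosphate at 10 mM besides the serum. No gene was edited and no Notch agonist or inhibitor was given, so every comparison is between stages of one line. The sources used here do not say whether A and B came from separate cultures, and p-values then measure only the spread between these samples, which may be technical. In these bulk samples, fewer cells that express a gene and less RNA per cell cannot be told apart.

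Notch receptors are single-pass membrane proteins that are activated by ligands of the Jagged and Delta families on a neighbouring cell. Binding exposes the receptor to the protease ADAM10 and then to γ-secretase, and the released intracellular domain joins RBPJ and a Mastermind protein on DNA to start transcription of the Hes and Hey genes, which code for repressors. In the osteoblast lineage, Notch is known to hold back early differentiation and to act in mature cells and osteocytes as well.

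Total counts per sample ran from 44736156 to 162939333. Levels are given as RPKM, which scales the reads on a gene by its length and by the reads of the library, and differences were tested on the counts with edgeR's quasi-likelihood test over all 20808 genes that passed its filter on low counts. A gene passed a comparison at a Benjamini-Hochberg adjusted p under 0.05, whatever its fold change. A different pair of library indexes was used at 14d and 21d than at the 3 earlier stages. For 14d against confluent and 21d against subconfluent cells, stage and index pair therefore cannot be told apart. The replicates of 24h differed more from each other than those of the other stages. Over 16121 genes that reached 10 counts in each of the samples, the log2 ratio of 24h A to 24h B had an SD of 0.69. The same ratio at the other stages had an SD of 0.29 to 0.33, and this measure does not say which 24h library deviates. The 10 osteoblast markers, Runx2, Sp7, Col1a1 and Bglap among them, were detected in every sample, and all 7 endothelial markers stayed under 0.1 RPKM in every sample, with a summed level of 0.0255 to 0.124 RPKM. Of 7 markers of blood cells and macrophages, 2 stayed under 0.1 RPKM in every sample, Ptprc among them with 0 counts. The summed level was 10.3 to 269 RPKM, and 10.3 to 10.7 RPKM in subconfluent cells, where Tyrobp had 0 counts. Csf1r, Cd68, Itgam and Cd14 were tested and passed no comparison. Tyrobp was at 0 and 179.1 RPKM in confluent A and B, 0.50 and 213.6 at 14d and 256.3 and 0.27 at 21d. The 7 mural cell markers summed to 458 to 504 RPKM at 14d and 1413 to 1445 RPKM in subconfluent cells, mostly Acta2, which fell, while Cspg4 rose by 1.40 ± 0.19 on the log2 scale at 21d against subconfluent cells (edgeR adjusted p = 0.00065) and Rgs5 and Kcnj8 stayed under 0.1 RPKM. The 5 chondrocyte markers summed to 45.7 to 242 RPKM, mostly Col2a1, and the 5 adipocyte markers to 0.022 to 1.09 RPKM. The 5 proliferation markers summed to 267 to 275 RPKM in subconfluent and 25.3 to 35.6 RPKM in 21d cells, and the part of any of these lists in the Notch values was not tested.

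Promoter windows from 250 bases before to 50 after the transcription start were found in RefSeq (GRCm38.p6) for 7 of the 10 genes, all but Hes1, Hey1 and Heyl. They are shown for 3 genes with different courses, Notch3, which was highest late, Jag1, which was highest early, and Hey2, which was all but silent. Capitals mark, on either strand, TGGGAA (the core of the RBPJ site), CACGTG (an E-box bound by Hes and Hey proteins) and CACNAG (an N-box bound by Hes proteins). The windows lie at chr17:32166841-32167140, chr2:137116471-137116770 and chr10:30842734-30843033, each on the minus strand.

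Notch3: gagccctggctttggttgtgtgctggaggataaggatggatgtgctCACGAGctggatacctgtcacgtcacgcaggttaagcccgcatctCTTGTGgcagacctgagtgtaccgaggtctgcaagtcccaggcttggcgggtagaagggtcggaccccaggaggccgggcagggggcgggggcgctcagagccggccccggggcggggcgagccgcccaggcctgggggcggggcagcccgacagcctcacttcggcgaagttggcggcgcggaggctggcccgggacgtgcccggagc

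Jag1: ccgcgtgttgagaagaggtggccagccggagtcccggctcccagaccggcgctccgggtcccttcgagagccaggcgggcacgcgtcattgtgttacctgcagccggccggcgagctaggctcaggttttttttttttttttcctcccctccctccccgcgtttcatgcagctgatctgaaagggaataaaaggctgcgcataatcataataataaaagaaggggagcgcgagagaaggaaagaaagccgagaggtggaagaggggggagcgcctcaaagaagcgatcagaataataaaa

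Hey2: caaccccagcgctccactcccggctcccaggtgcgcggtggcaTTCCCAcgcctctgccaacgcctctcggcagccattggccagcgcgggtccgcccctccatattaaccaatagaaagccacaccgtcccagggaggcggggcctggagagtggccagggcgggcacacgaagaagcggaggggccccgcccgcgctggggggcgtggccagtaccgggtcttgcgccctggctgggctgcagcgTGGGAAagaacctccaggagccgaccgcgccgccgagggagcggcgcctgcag

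The Hey2 window held TGGGAA in 2 places, where 25.6% of all 32851 promoter windows held it at least once, and none of the other 6 Notch windows did. No window of the 7 held CACGTG, against 7.15% of all windows. CACNAG was found 2 times in the Notch3 window, 3 times in that of Notch1, with 2 of the 3 overlapping on opposite strands, and once in that of Notch2, against at least one match in 42.5% of all windows. Jag1, Jag2 and Notch4 held none of the 3 motifs. These are matches of letters only.

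The receptors set out from one dominant member and became more even. Notch2 had the highest level of all 10 genes at each stage, and the other 3 receptors rose from subconfluent to 21d cells, Notch3 by 5.53-fold, Notch1 by 4.50-fold (a call that 11 of 23 alternatives lost) and the scarce Notch4 by 3.27-fold. In the fit of all 10 samples, Jag1 was the only one of the 9 tested genes to pass in confluent against subconfluent cells. There it fell 1.91-fold, a call that 11 of 23 alternatives also lost, and Jag1 was lower still at 14d. Hes1 was 2.06-fold lower at 21d than in subconfluent cells. Of the 9 genes that could be tested, 4 passed the F test over the 5 stages (Notch3, Jag1, Jag2 and Hes1), a share to be read against 48.9% of all genes tested. Hey2 did not pass the filter.

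**Figure D1:**
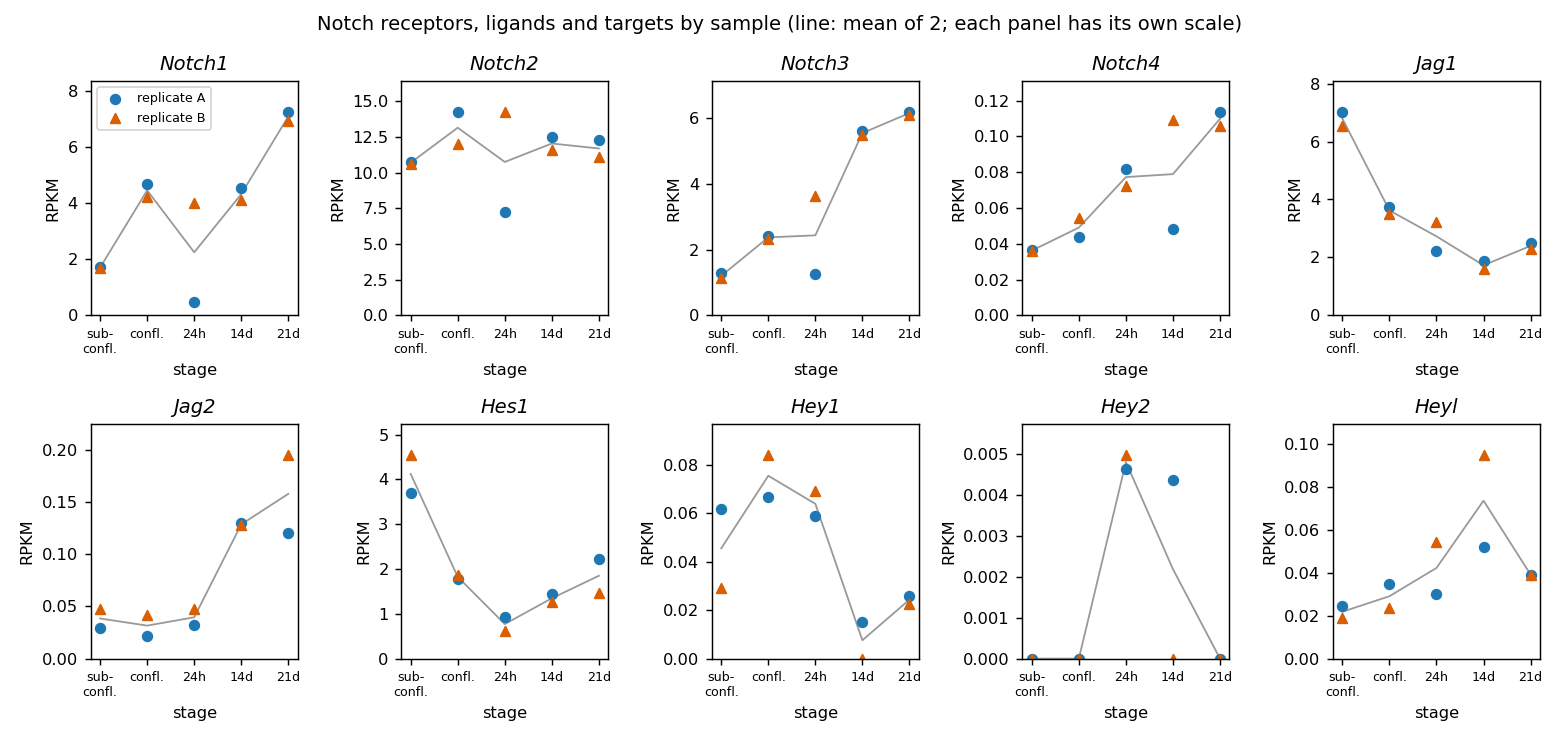
RPKM of each of the 10 genes (y axis, a scale of its own per panel) at the 5 stages (x axis), with replicate A as circles, replicate B as triangles and a line through the means of 2. Jag1 and Hes1 start at their highest values, Notch3 ends at 6.20 and 6.11 RPKM, and at 24h the A samples of Notch1, Notch2 and Notch3 lie below the B samples.

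Notch1 codes for the receptor best known from T cells and blood vessels. On GRCm38 the gene spans chromosome 2 from 26457903 to 26516663 on the minus strand. Its level was 1.73 and 1.68 RPKM in subconfluent, 4.70 and 4.21 in confluent, 0.48 and 4.02 at 24h, 4.54 and 4.10 at 14d, and 7.26 and 6.91 at 21d, A before B. The confluent, 14d and 21d samples were all above the subconfluent ones, both 21d samples were above both 14d samples, and the 24h A sample was the lowest of the 10. The log2 fold change from subconfluent to 21d was 2.17 ± 0.75 (SE), with an adjusted p of 0.045 in edgeR's test, and it ran from 1.58 to 2.30 over 23 alternatives, and 11 of these lost the call, among them every fit without 1 of the libraries of the other 4 stages (adjusted p of 0.072 to 0.17). From subconfluent to confluent cells it was 1.36 ± 0.74 (edgeR adjusted p = 0.42), and from 14d to 21d 0.64 ± 0.72 (edgeR adjusted p = 0.70). Without the 24h A library these were 1.36 and 0.64. Both differences passed when all the 24h samples were left out, and the reason was not tested. Of the exon bases of Notch1, 1068 of 14232 lie opposite exons of 0610009E02Rik, which had a mean count of 882.6 against 2839 for Notch1. Whether the counting used strand is not given in the sources used here, so reads in that stretch cannot be assigned to one of them.

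The 24h difference between replicates was far larger for Notch1 than for most genes. Notch1 was 8.42-fold lower in A than in B, and 0.378% of 16121 genes had a ratio as low or lower. Notch3 was 2.89-fold lower in A, Notch2 1.97-fold and Jag1 1.46-fold, while Hes1 was 1.49-fold higher in A. Across genes the ratio moved with gene length, from a median log2 A/B of 0.25 for genes of up to 1000 bases to -0.74 for those over 10000 bases, and it was -0.62 over the 1396 genes of at least 7500 bases. At the other stages the median over those long genes was 0.053 to 0.14. Of 35 other Notch pathway genes with at least 0.5 RPKM in both 24h samples, 27 were lower in A, 4 of them by more than 2-fold, Spen, Adam17 and Maml3 among these. Notch1 at 24h against confluent cells was -0.94 ± 0.73 on the log2 scale in all samples, -0.11 without 24h A and -3.06 without 24h B.

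**Figure D2:**
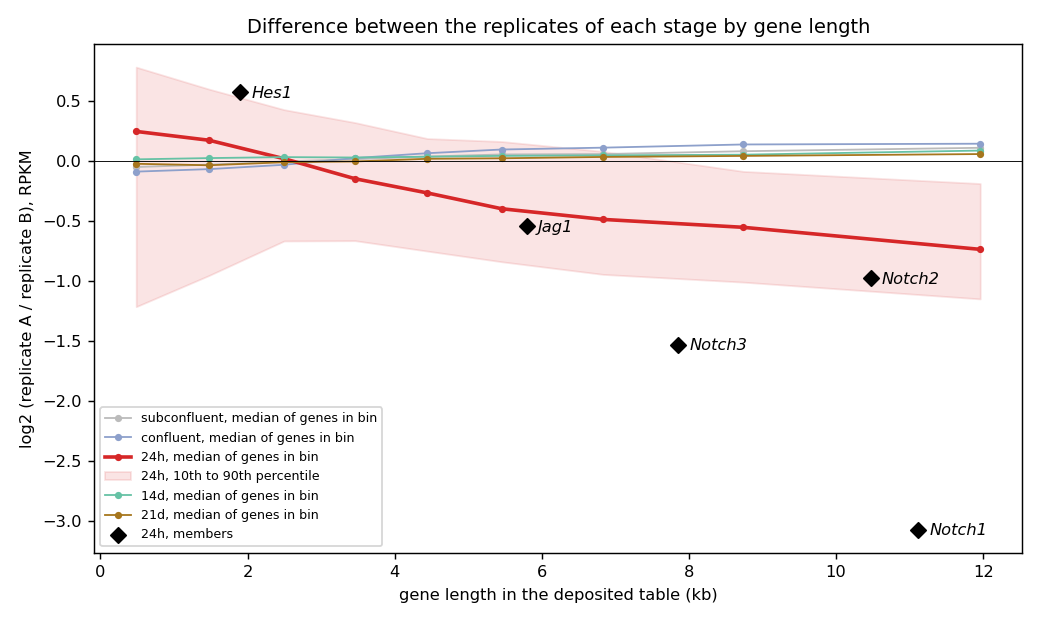
Log2 of the RPKM in replicate A over that in replicate B (y axis) against gene length in kilobases (x axis), as the median of genes in 9 length bins for each stage, with the 10th to 90th percentile shaded for 24h and diamonds for 5 of the Notch genes at 24h. The 24h line falls with length and the others stay near 0; Notch1 lies at -3.07, below the shaded band, as does Notch3 at -1.53.

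Notch2, the receptor known for its role in bone through gain-of-function mutations of Hajdu-Cheney syndrome, spans chromosome 3 from 98013527 to 98150361 on the plus strand. It measured 10.8 and 10.6 RPKM in subconfluent, 14.3 and 12.02 in confluent, 7.24 and 14.3 at 24h, 12.5 and 11.6 at 14d, and 12.3 and 11.1 at 21d. The ranges of the stages overlapped from confluent cells onwards. It passed none of the comparisons, and its log2 fold change from subconfluent to 21d was 0.25 ± 0.25 (edgeR adjusted p = 0.45). The stage means lay between 10.7 and 13.1 RPKM.

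Notch3, known as the receptor of vascular smooth muscle and pericytes, spans chromosome 17 from 32120820 to 32166852 on the minus strand. It measured 1.28 and 1.12 RPKM in subconfluent, 2.41 and 2.33 in confluent, 1.25 and 3.62 at 24h, 5.60 and 5.50 at 14d, and 6.20 and 6.11 at 21d. Leaving 24h aside, the samples of each stage lay above all samples of the stage before. It rose by 1.44 ± 0.38 on the log2 scale (2.72-fold) from confluent cells to 14d (edgeR adjusted p = 0.026) and by 2.47 ± 0.40 from subconfluent cells to 21d (edgeR adjusted p = 0.0017). The second call held under all 23 alternatives and the first under 17, and the first was lost without any 1 of the confluent or 14d libraries (adjusted p of 0.092 to 0.12). From subconfluent to confluent cells the difference of 0.95 ± 0.38 did not pass (edgeR adjusted p = 0.27), and it passed without the 24h A library, at 0.95 and an adjusted p of 0.0010. From 14d to 21d the difference was 0.076 ± 0.37 (edgeR adjusted p = 0.96). Among the 7 mural markers, only Cspg4, a pericyte marker, passed as higher at 21d against subconfluent cells. It was at 10.9 and 11.0 RPKM in subconfluent, 32.3 and 32.7 at 14d and 28.4 and 25.0 at 21d. From 14d to 21d both its samples were lower, while those of Notch3 were higher. At 21d against subconfluent cells Acta2 fell by 1.45 ± 0.13 on the log2 scale (edgeR adjusted p = 9.9e-05). Rgs5, Mcam, Myh11 and Des did not pass there, at -1.17, -0.0077, -0.46 and 0.73. The part of mural cells in the Notch3 values was not tested. A stretch of 488 exon bases lies opposite Gm17276, which had a mean count of 48.5 against 1795.

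Notch4, an endothelial receptor, spans chromosome 17 from 34564268 to 34588503 on the plus strand and was barely detected. It had 39 counts over the subconfluent samples and 100 over the 21d samples, or 0.036 and 0.036 against 0.11 and 0.11 RPKM. Its 21d samples were both above the subconfluent ones, and the log2 fold change was 1.71 ± 0.43 (edgeR adjusted p = 0.013). The adjusted p was 0.079 without subconfluent A, 0.069 without subconfluent B and 0.053 without 21d A. The 14d samples disagreed, at 0.048 and 0.11 RPKM.

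As a share of the summed RPKM of the 4 receptors, Notch2 made up 78.4 ± 0.71% (SD, n = 2) in subconfluent, 65.6 ± 1.4% in confluent, 54.8 ± 0.54% at 14d and 46.7 ± 1.2% at 21d. Notch1 took 12.5 ± 0.045% in subconfluent, 22.3 ± 0.48% in confluent and 28.3 ± 0.32% at 21d. Notch3 took 8.82 ± 0.67% in subconfluent, 25.3 ± 0.84% at 14d and 24.6 ± 0.87% at 21d. In RPKM, Notch1 thus exceeded Notch3 in subconfluent and confluent cells. Notch3 exceeded Notch1 at 14d, by 5.55 against 4.32 RPKM. The order was back at 21d, by 7.09 against 6.16 RPKM, with no overlap of replicates at these 4 stages. In shares of the receptor counts, which are not scaled by gene length, Notch1 stayed above Notch3 at 14d, at 21.99% against 19.98%. The order at 14d thus depended on the scaling by length. For Notch1 that length was 11119 bases, against 14232 exon bases, and other lengths were not tested. The summed level of the receptors went from 13.6 ± 0.24 RPKM in subconfluent to 25.0 ± 1.1 RPKM at 21d. At 24h the Notch1 share was 11.8 ± 9.2%, since the replicates disagreed. Shares and sums carry no test.

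**Figure D3:**
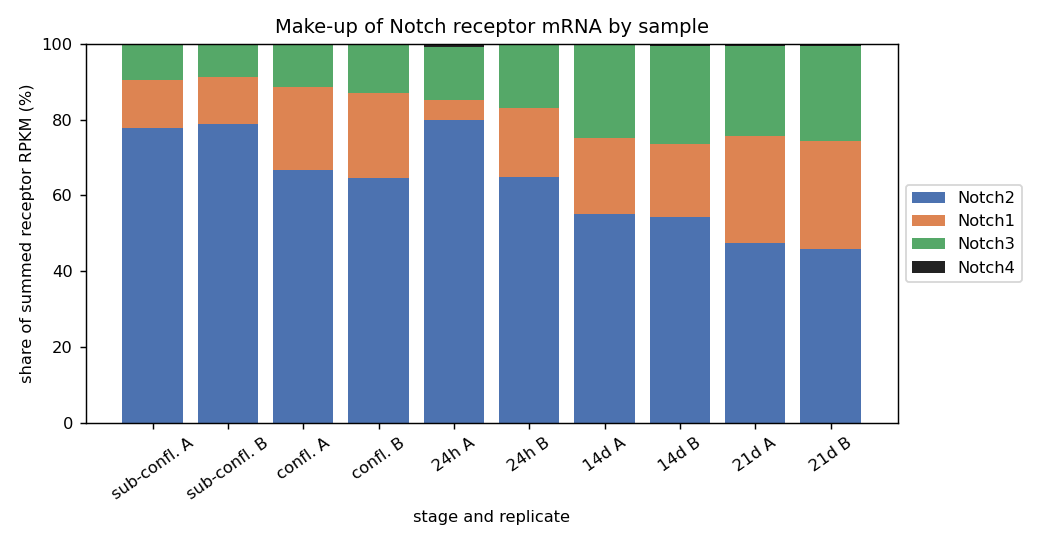
Share of each receptor in the summed RPKM of Notch1 to Notch4 (y axis, percent) in the 10 samples (x axis). The Notch2 share drops from 78.4% on average in subconfluent to 46.7% in 21d cells, and the 24h A bar differs from its 24h B neighbour.

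Jag1 was the more abundant of the 2 Jagged ligands in every sample. It spans chromosome 2 from 137081456 to 137116644 on the minus strand. It measured 7.03 and 6.54 RPKM in subconfluent, 3.76 and 3.49 in confluent, 2.22 and 3.24 at 24h, 1.86 and 1.60 at 14d, and 2.49 and 2.31 at 21d. Both subconfluent samples were above every other sample, and both 14d samples were the lowest. It fell by 0.93 ± 0.15 on the log2 scale from subconfluent to confluent cells, with an edgeR adjusted p of 0.024, where 1 of 9 Notch genes passed against 3.28% of all genes. It fell by 0.85 ± 0.15 from confluent cells to 14d (edgeR adjusted p = 0.0055, and 0.050 without 14d B) and by 1.39 ± 0.15 from subconfluent cells to 21d (edgeR adjusted p = 0.00027). The last of these calls held under all 23 alternatives. The call on confluence was lost in 11 of 23, 8 of them leaving out 1 library of any stage but 24h (adjusted p of 0.060 to 0.20), and the log2 value was at most -0.75 in all of them. From 14d to 21d Jag1 was 1.32-fold higher (edgeR adjusted p = 0.17), and the adjusted p was 0.023 without the 24h A library.

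Jag2 spans chromosome 12 from 112907819 to 112929776 on the minus strand and was present at a few counts. Its counts were 12 and 6 in subconfluent, 3 and 18 in confluent, 11 and 15 at 24h, 47 and 17 at 14d, and 17 and 63 at 21d. In RPKM every 14d and 21d sample, at 0.12 to 0.20, was above every earlier sample, at 0.022 to 0.048. It rose by 2.15 ± 0.47 on the log2 scale from confluent cells to 14d (edgeR adjusted p = 0.013) and by 2.22 ± 0.48 from subconfluent cells to 21d (edgeR adjusted p = 0.0066). The first call was lost without confluent A, 14d A or 14d B (adjusted p of 0.056 to 0.073) and the second without subconfluent A or 21d B (0.067 and 0.054). The Jag1 level was 189.7 ± 76 times that of Jag2 in subconfluent cells and 16.2 ± 6.3 times at 21d (SD, n = 2).

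Jag1 exceeded Notch1 in subconfluent cells and lay below it in confluent, 14d and 21d cells. At 24h the replicates disagreed, with Jag1 at 4.65 times Notch1 in A and 0.81 times in B. The Jag1 level was 3.98 ± 0.12 times that of Notch1 in subconfluent, 0.81 ± 0.021 times in confluent, 0.40 ± 0.014 times at 14d and 0.34 ± 0.0070 times at 21d. The summed receptors were 2.01 ± 0.067 times Jag1 in subconfluent and 10.4 ± 0.098 times at 21d (SD, n = 2, no test).

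Among the targets, Hes1 was the only one present above traces. Hes1, a repressor that also oscillates in many cell types, spans chromosome 16 from 30064384 to 30067796 on the plus strand. It measured 3.69 and 4.55 RPKM in subconfluent, 1.78 and 1.87 in confluent, 0.92 and 0.62 at 24h, 1.43 and 1.26 at 14d, and 2.22 and 1.47 at 21d. Both subconfluent samples were above all others and both 24h samples below all others, with the 24h A sample the higher of the pair, so that the low 24h level was present in both libraries. Its log2 fold change from subconfluent to confluent cells was -1.20 ± 0.28, with an edgeR adjusted p of 0.075. The log2 fold change from confluent cells to 24h was -1.14 ± 0.28, with an edgeR adjusted p of 0.068. Neither passed, while 8 of 23 alternatives called the first and 5 of 22 the second, DESeq2 among both, with adjusted p of 0.0042 and 0.0075. From subconfluent cells to 21d Hes1 fell by 1.04 ± 0.28 (edgeR adjusted p = 0.017), a call lost without subconfluent B (0.089) or 21d B (0.11). At 14d against confluent cells the difference was -0.22 ± 0.28 (edgeR adjusted p = 0.60).

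The Hey genes gave counts near the limit of these libraries. Hey1 (chromosome 3, 8663359 to 8667256, minus strand) had counts of 14 and 2 in subconfluent, 5 and 20 in confluent, 11 and 12 at 24h, 3 and 0 at 14d, and 2 and 4 at 21d. Confluent cells had 25 counts and 14d cells 3. Relative to the total counts of each stage, the ratio was 7.27 with an exact 95% interval of 2.22 to 37.6, which covers counting error only. The difference passed edgeR's test (adjusted p = 0.039), and 10 of 20 alternatives lost it, 7 of them without 1 library of a stage other than 24h (adjusted p of up to 0.16). Heyl (chromosome 4, 123233556 to 123249875, plus strand) had counts of 13 and 3, 6 and 13, 13 and 22, 24 and 16, and 7 and 16 from subconfluent to 21d. Its log2 fold change of 1.56 ± 0.50 from confluent cells to 14d passed at an edgeR adjusted p of 0.049 and was lost in 16 of 22 alternatives, among them 8 that left out 1 library (adjusted p of up to 0.25). Hey2 (chromosome 10, 30832359 to 30842801, minus strand) had 1 count in each of the 24h samples and in 14d A, and 0 in the other 7 samples. These 3 counts of 1015103989 in all show no level above what a count of 0 allows, which is 3 counts.

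**Figure D4:**
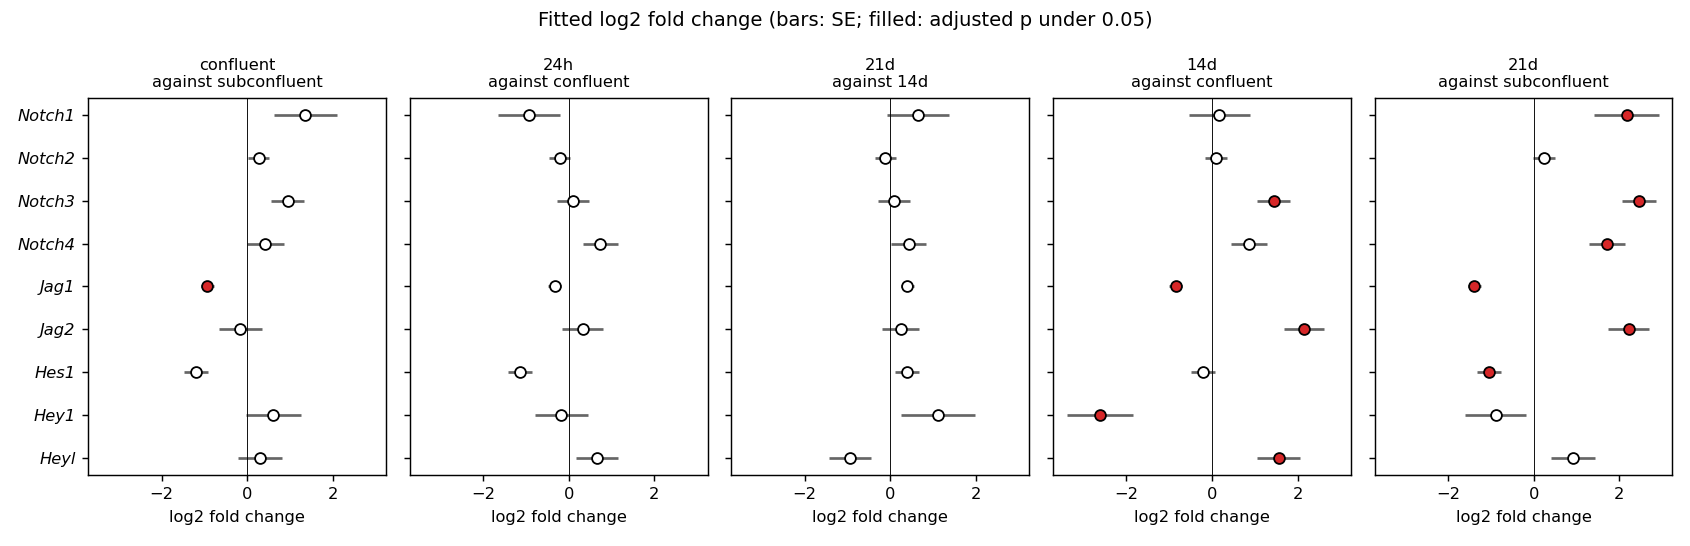
Fitted log2 fold change (x axis) of the 9 genes tested (y axis) in the 5 comparisons, with SE as bars and filled points for an adjusted p under 0.05. The filled points number 1, 0, 0, 5 and 6 from left to right, and the Notch1 bars are the widest among the receptors.

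By comparison, 0 of the 9 genes passed between confluent cells and 24h, where 5.15% of all genes did, with 1 (Hes1) at an unadjusted p under 0.05, 1 by DESeq2 and 0 by limma. Also 0 passed between 14d and 21d, against 9.72% of all genes, with 1 (Jag1) at an unadjusted p under 0.05 and 0 by DESeq2 and limma. Between confluent cells and 14d 5 passed, Notch3, Jag2 and Heyl higher and Jag1 and Hey1 lower, against 32.1% of all genes. Between subconfluent cells and 21d 6 passed, Notch1, Notch3, Notch4 and Jag2 higher and Jag1 and Hes1 lower, against 50.7% of all genes. The median log2 fold change of the 9 genes was 0.91 in this last comparison and that of all genes 0.039, without a test. The middle value is that of Heyl, at 0.91 ± 0.51, which did not pass (edgeR adjusted p = 0.18). Heyl had 16 counts in subconfluent and 23 in 21d cells. The comparisons that share a stage share its samples.

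The rest of the pathway was taken from a list of 49 genes by role, of which 40 were tested. Of these 40, 20 passed the F test, or 50% against 48.9% of all genes. In confluent against subconfluent cells 2 passed (5% against 3.28% of all genes), and at 24h against confluent cells 1 (2.5% against 5.15%). At 21d against 14d 7 passed (17.5% against 9.72%). At 14d against confluent cells 11 passed, 9 of them higher (27.5% against 32.1%). At 21d against subconfluent cells 18 passed, 12 of them higher (45% against 50.7%). Whether these shares differ from those of all genes was not tested.

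Among the other ligands, Dll1, a Delta-type activator, measured 0.10 to 0.11 RPKM in subconfluent and 0.26 to 0.27 at 21d, a log2 fold change of 1.43 ± 0.23 (edgeR adjusted p = 0.0018). Dll4, the endothelial Delta ligand, did not exceed 0.07 RPKM and did not pass. Dlk2, a non-canonical Delta-like protein, went from 22.0 and 23.3 RPKM in subconfluent to 8.63 and 9.33 at 14d and 5.18 and 5.35 at 21d. It fell by 1.99 ± 0.14 on the log2 scale over the course (edgeR adjusted p = 3.5e-05), with no overlap between these stages. Dlk1 had 0 counts.

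Lfng, a glycosyltransferase that changes which ligands a Notch receptor answers to, measured 22.5 and 24.0 RPKM in subconfluent, 16.6 and 17.1 in confluent, 12.5 and 13.3 at 14d and 7.14 and 7.25 at 21d. It fell in confluent against subconfluent cells, by 0.49 ± 0.081 (edgeR adjusted p = 0.024, lost at 0.064 to 0.17 without any 1 library of a stage other than 24h), and again from 14d to 21d, by 0.92 ± 0.082 (edgeR adjusted p = 0.00085). The other 3 fringe and fucose or glucose transferases tested (Pofut1, Poglut1 and Rfng) did not pass at 21d against subconfluent cells. Pofut1, which adds fucose to Notch, passed the F test (edgeR adjusted p = 0.037) and fell by 0.60 ± 0.18 at 14d against confluent cells (edgeR adjusted p = 0.040, lost at 0.070 to 0.19 without any 1 of the confluent, 14d or 21d libraries).

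The ubiquitin ligases that drive ligand endocytosis moved in both directions. Mib2 rose by 1.90 ± 0.22 from subconfluent cells to 21d, where the samples measured 5.71 and 5.58 RPKM against 1.38 and 1.92. Neurl1a fell by 1.32 ± 0.18 and Neurl1b by 1.75 ± 0.19, the latter from 2.22 and 2.19 to 0.58 and 0.63 RPKM. The edgeR adjusted p-values of the 3 were at most 0.00065. Mib1 did not pass.

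In the cleavage machinery, 2 of the 10 genes tested passed at 21d against subconfluent cells, the γ-secretase subunits Psen2 and Aph1b, both higher, where 50.7% of all genes passed. Adam10, the protease of the first cut, measured 30.7 and 28.9 RPKM in subconfluent and 23.2 and 22.8 at 21d, a log2 difference of -0.26 ± 0.16 (edgeR adjusted p = 0.21, and 0.012 without 24h A), and none of the 3 proteases passed any comparison. Psen2, a catalytic subunit of γ-secretase, rose by 1.31 ± 0.12 (edgeR adjusted p = 0.00012), from 2.54 and 2.24 to 5.55 and 5.43 RPKM.

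Of the nuclear genes, Rbpj, the DNA-binding partner of all 4 receptors, measured 16.1 and 15.3 RPKM in subconfluent, 12.1 and 10.3 in confluent, 8.09 and 10.7 at 24h, 9.80 and 10.1 at 14d, and 17.2 and 17.2 at 21d. It rose by 0.72 ± 0.12 from 14d to 21d (edgeR adjusted p = 0.011), where both stages have the same index pair, and the adjusted p was 0.078 to 0.099 without 1 of the 4 libraries compared. Rbpjl, a relative that does not bind the Notch intracellular domain, rose by 1.55 ± 0.17 from subconfluent to confluent cells (edgeR adjusted p = 0.0042), from 1.02 and 0.90 to 3.02 and 2.73 RPKM, and measured 4.10 and 3.74 RPKM at 21d. Of the 8 genes of this group, 2 passed at 21d against subconfluent cells, Rbpjl higher and Snw1 lower, where 50.7% of all genes passed.

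Of 9 inhibitors and turnover genes tested, 8 passed at 21d against subconfluent cells, 7 higher, where 50.7% of all genes passed. Dtx4, one of the Deltex ubiquitin ligases, measured 0.46 and 0.47 RPKM in subconfluent, 0.61 and 0.66 in confluent, 0.93 and 0.99 at 24h, 4.63 and 4.42 at 14d, and 4.49 and 3.98 at 21d. It was the only gene of the list to pass at 24h against confluent cells, where it rose by 0.68 ± 0.10 (edgeR adjusted p = 0.013, and 0.10 and 0.070 without confluent A and B), and it was 9.87-fold higher at 21d than in subconfluent cells (edgeR adjusted p = 2.6e-06). Dtx3 rose by 1.24 ± 0.089 and Dtx3l by 1.16 ± 0.18 over the same span. Dtx1, the Deltex gene known as a Notch target in lymphocytes, had 0 counts in subconfluent and 37 at 21d, at least 14-fold higher when 3 counts are set for the subconfluent stage. Numb, which lowers surface Notch, was among the 7 higher genes and Fbxw7, which marks the intracellular domain for degradation, was the lower one. Nrarp, a feedback target, had 27 counts over all samples.

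**Figure D5:**
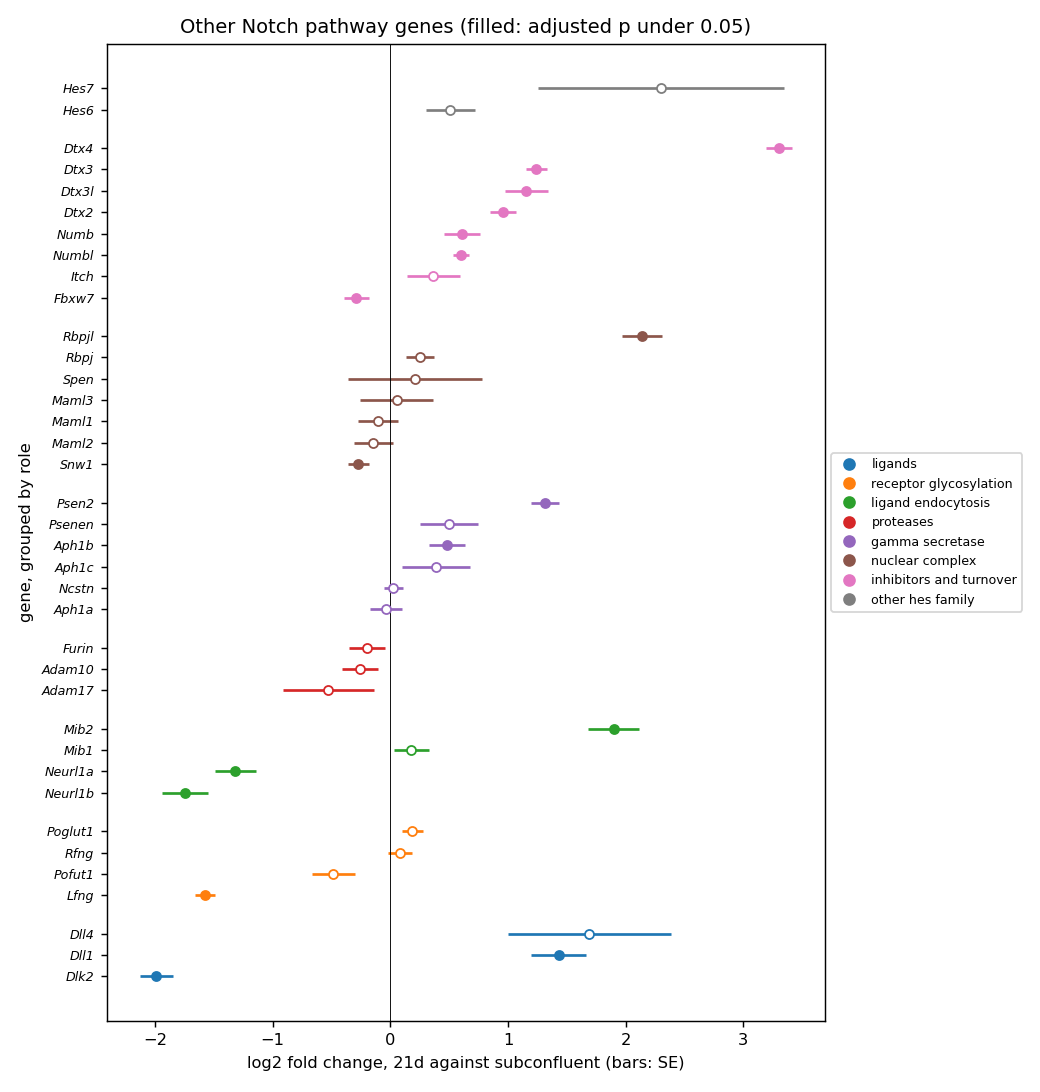
Log2 fold change at 21d against subconfluent cells (x axis, bars are SE) of 37 other Notch pathway genes tested with counts at both stages, grouped by role (y axis), filled for an adjusted p under 0.05. Dtx4 lies farthest to the right at 3.30 and Dlk2 farthest to the left at -1.99.

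In the wider Hes family, Hes6, which is not a typical Notch target, was the most abundant at 10.8 and 11.8 RPKM in subconfluent, 25.05 and 18.1 at 24h and 13.2 and 16.5 at 21d. It passed the F test (edgeR adjusted p = 0.037) and none of the 5 comparisons. Hes5, a classical target in neural cells, had 6 counts in all.

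For the 3 Notch genes with the lowest F test p-values, the genes that followed each most closely over the 10 samples were named. Pearson r was taken on log2 of the normalized counts, not on RPKM. These genes are given as a description without a test, since the samples fall into stages that many genes follow. For Jag1 they were Slc39a6, Dbn1 and Tgfb2, at Pearson r of 0.991, 0.986 and 0.985. For Hes1 they were Sh3bp4, Ptx3 and Socs3, at 0.946, 0.929 and 0.927, and for Notch3 Zfyve1, Fchsd2 and Mxi1, at 0.995, 0.991 and 0.990. About 12080 genes were compared each time.

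The order of the 10 genes by RPKM turned over below Notch2. In subconfluent cells it ran Notch2, Jag1, Hes1, Notch1, Notch3, and at 21d Notch2, Notch1, Notch3, Jag1, Hes1, with replicates of neighbours apart in both cases. At 24h Jag1, Notch3 and Notch1 overlapped, at 2.73, 2.44 and 2.25 RPKM on average. The other 5 genes stayed under 0.2 RPKM in every sample.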

How the data were processed

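RNA of MC3T3-E1 cells was sequenced as 51 bp paired-end reads. Per the labels, the submitters' processing notes name FastQC, TopHat2 2.0.9, R 3.0.1 and mm10; the counting tool and its strand setting are not given in the sources used here. The authors deposited whole-number counts per gene without normalization, and RPKM, made from the counts, gene lengths and a read total. The summed counts were 1.44 to 1.60 times that read total. Genes were matched to GENCODE vM21 (GRCm38), and 39547 of 40620 had a symbol. The libraries 14d A and 21d B were each run in 2 lanes and the merged column was used.

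Counts were tested with edgeR 4.0.16 in R 4.3.3 (filterByExpr, TMM, quasi-likelihood, 5 stage means fitted to all 10 samples, Benjamini-Hochberg over 20808 genes). SE values were obtained as the log2 fold change over the root of F. The test was tested on simulated data. DESeq2 1.42.0 and limma 3.58.1 were alternatives, with other scalings, filters and thresholds, a replicate block and each sample left out. Removal of a gene-length trend was chosen after seeing the data. Ratios and motif counts used Python 3.11.15. The replicate letters did not pair samples: over 10 pairs of stages, deviations correlated between -0.18 and 0.10.

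The members and lists were chosen with earlier results of these data known. Named were all members, the listed pathway genes that passed the F test and changed over 2-fold at 21d against subconfluent or 14d against confluent cells, and Rbpj, Adam10, Dll1 and Dll4; 2 listed genes are counted but not reported singly here. Other genes were named after their values were seen. Intervals and limits from counts cover counting error only.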

Additional observations from a re-analysis of the deposited data

How the results depend on the processing

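None of the 46 fold changes recomputed changed sign under any alternative run. The numbers of Notch genes that passed depended on the 24h samples and on single libraries. Without the 24h samples, 7 passed the F test in place of 4, 4 in place of 1 passed in confluent against subconfluent cells (Notch1, Notch3, Jag1 and Hes1), and 2 in place of 0 at 21d against 14d (Notch1 and Jag1). With only the groups compared these last counts were 4 and 2, and 3 in place of 5 at 14d against confluent cells. In confluent against subconfluent cells the count was 0 with library size alone, with the replicate block, with limma on log2(RPKM + 0.1), with a 2-fold threshold and at an adjusted p under 0.01, and 2 with DESeq2, with at least 10 counts in every sample, with limma on log2(RPKM + 1) and with the length trend removed. At 24h against confluent cells it was 1 with library size alone, DESeq2, at least 10 counts and the length trend removed, and at 21d against 14d 1 with the length trend removed. At 14d against confluent cells it was 3 with library size alone, DESeq2, no filter, the replicate block and limma on log2(RPKM + 0.1), 2 with at least 10 counts (which leaves Notch4, Jag2, Hey1 and Heyl untested), and 1 at an adjusted p under 0.01, where 21d against subconfluent cells gave 3. Leaving out 1 library at a time gave 4 to 7 in the F test, 0 to 4 in confluent against subconfluent cells, 0 to 4 at 24h against confluent cells, 0 to 2 at 21d against 14d, 0 to 5 at 14d against confluent cells (0 without 14d B) and 3 to 6 at 21d against subconfluent cells. With the replicate block, Notch1 at 21d against subconfluent cells had an adjusted p of 0.060. The cause of the differing numbers was not tested for any setting. Hey1, Heyl and Jag2 had 3 to 80 counts per stage.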
